A study of Zea mays with 6 samples.

Results

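In the leaf transcriptomes of the transgenic maize (Zea mays) line L100 and its wild type, 75 of 39628 gene models were silent in L100 and read in every wild type library. They were chosen from the estimated fragment counts, rounded to whole numbers, as genes with at most 3 counts summed over the 3 L100 libraries and at least 10 counts in each of the 3 wild type libraries. The wild type is the inbred line Q319, and both lines were grown in the field. The sample labels give leaves at the 6-leaf stage while the design text speaks of leaf 6, so which leaf was taken is not settled. The labels do not name the transgene of L100, so no targeted gene could be checked, and they do not say whether the 3 libraries of a line came from separate plants. The design text states no question beyond looking at the leaves of L100 and of Q319. The difference between the lines was what chose these genes. It is therefore described and not tested.

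Maize leaves fix carbon through the C4 pathway, which divides the work between mesophyll and bundle sheath cells, and a small number of photosynthesis genes make up much of their RNA. Inbred lines of maize are known to differ in gene content and in which gene copies they transcribe. Counts here refer to the gene models of the B73 genome, another inbred. A count near 0 means only that almost no fragment was assigned to a B73 model. A gene that is not transcribed, one that is missing and one whose sequence is too different to be aligned all give this count and cannot be told apart. In whole leaves, fewer cells of a type and less RNA per cell cannot be told apart either.

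Library totals ran from 8320337 to 9922468 counts in wild type and from 6458248 to 7536583 in L100. The leaf label was checked with 12 gene models of photosynthesis genes (pep1, pdk1, me3, ssu1, rca1 and cab genes, with several models for pep1 and pdk1). Their summed level was 70484 to 112108 CPM in the wild type libraries and 116939 to 141187 CPM in those of L100 (CPM is the count relative to the library size, scaled by TMM). In wild type replicate 3, which had the lowest sum, cab-m1, cab-m7 and cab-m9 had 380, 742 and 780 CPM. These 3 genes had 4799 to 8871 CPM in wild type replicates 1 and 2 and 4430 to 10562 CPM in L100. The cab48 gene had 121 to 226 CPM in wild type and 883 to 1999 CPM in L100. Of 24 endosperm storage protein genes, 23 had no count in any library, and 3 pollen and anther genes reached at most 0.892 CPM. Of 2 root genes, rth3 was highest in wild type replicate 3, at 6.74 CPM, and rtcs had no count. None of these markers was among the 75 genes. Wild type replicate 3 differed most from the other libraries, with a coordinate of -116 on the leading axis of a principal component analysis, where wild type replicates 1 and 2 had -35.5 and 7.16. The L100 libraries had 33.1, 60.9 and 50.3, so this axis, with 45.5% of the variance, also ordered the lines.

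At the wild type rate, and allowing for the smaller L100 libraries, each gene would have given from 25.7 to 880 counts over the 3 L100 libraries, with a median of 56.8. The L100 libraries held 26, 11 and 20 counts for all 75 genes together, in replicates 1 to 3. The wild type libraries held 3728, 4294 and 4366. As a summed level the 75 genes gave 380, 547 and 363 CPM in wild type replicates 1 to 3 and 3.63, 1.78 and 3.21 CPM in L100. Of the 75 genes, 44 had no count in any L100 library, 15 had 1 count, 6 had 2 and 10 had 3. The 31 genes with counts had them in 1 library (19 genes) or in 2 (12 genes), and no gene had a count in all 3 L100 libraries.

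Among the 17087 genes with at least 10 counts in each wild type library, called genes read in wild type here, the 75 made up 0.439%. The count of such genes did not fall off smoothly towards 0. There were 44 genes at an L100 sum of 0, 15 at 1, 6 at 2 and 10 at 3, then 4 at a sum of 4, 10 at 5 and 6 at 6, and numbers rose again to 44 genes at a sum of 30. The 20 genes just outside the limit, with 4 to 6 L100 counts, had wild type means of 1.31 to 5.66 CPM with a median of 2.48. The 10 just inside, with 3 counts, had means of 1.49 to 49.1 CPM with a median of 3.65. On the wild type side, 23 genes failed only because their lowest wild type library held 7 to 9 counts (median 1.46 CPM), and 19 of the 75 passed with 10 to 12 counts in their lowest library (median 2.02 CPM).

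**Figure D1:**
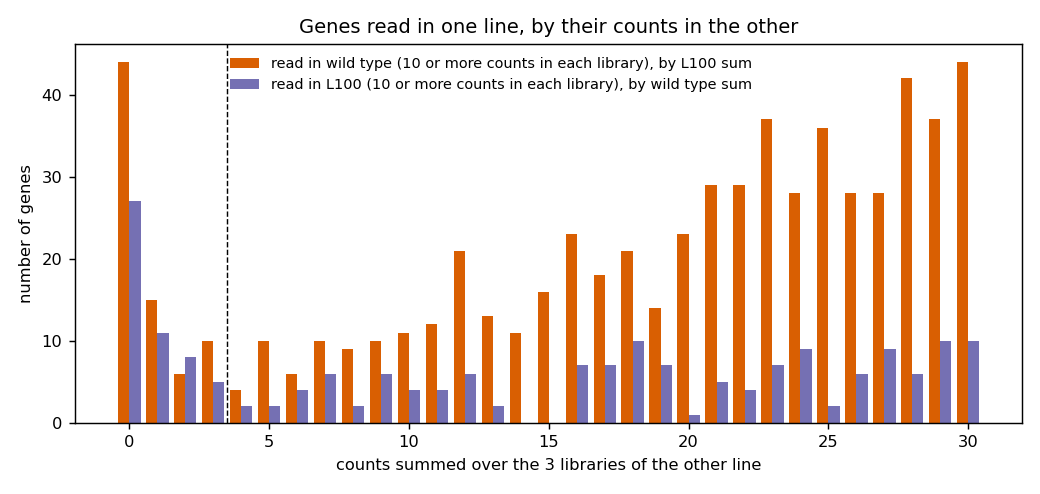
Number of genes (vertical axis) read in one line, with 10 or more counts in each of its 3 libraries, by their counts summed over the 3 libraries of the other line (horizontal axis); the dashed line is the limit of 3 counts. The orange bars, genes read in wild type, stand at 44 for an L100 sum of 0, drop to 4 at a sum of 4 and return to 44 at a sum of 30, and the purple bars, genes read in L100, start at 27.

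The mirrored rule, at most 3 counts over wild type and at least 10 in each L100 library, gave 51 genes, 0.309% of the 16514 genes read in L100. L100 was sequenced less deeply, which makes the mirrored rule stricter at equal levels. With counts scaled to the smallest library, a comparison added after the data were seen, 51 genes were silent in L100 and 45 were silent in wild type.

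The edgeR quasi-likelihood test over all genes gives the background. It called 59 of 18702 tested genes lower in L100 (0.315%). Of the 75 genes silent in L100, 64 passed its low-count filter and 34 were called. The other 11 did not pass the filter and were not tested. Every L100 library lay below every wild type library in 8.41% of all tested genes, and in all 75 silent genes because the rule sets it. Since the rule used the same contrast, neither count says anything further about these genes. The number called rested on every L100 library: without any 1 of them no silent gene was called by edgeR. All 75 then had an unadjusted edgeR p under 0.05, but the rule had chosen them for this difference. Over all tested genes 918 of 19712, 651 of 19810 and 726 of 19655 were lower at that p, without L100 replicate 1, 2 and 3. With the replicate number as a block 2 silent genes were called, of 3 over all genes. With DESeq2 63 were called, of 291 over all genes.

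In wild type most of these genes were read at low levels. Their median was 2.87 CPM, with quartiles of 2.09 and 6.21, against a median of 14.9 CPM over all genes read in wild type. Of the 75 genes, 54 had a mean under 5 CPM and 40 under 3 CPM, while 12 reached 10 CPM. In the lowest quartile of wild type level, 57 of 4272 genes (1.33%) were silent in L100. The second quartile held 13 (0.304%), the third 3 (0.0702%) and the highest 2 (0.0468%). A low gene has less far to fall to reach the limit of 3 counts, so the limit and the level are linked. Per kilobase of the length in the files, a scale for comparing genes, the median was 3.58 CPM against 12.5 CPM for all genes read in wild type.

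**Figure D2:**
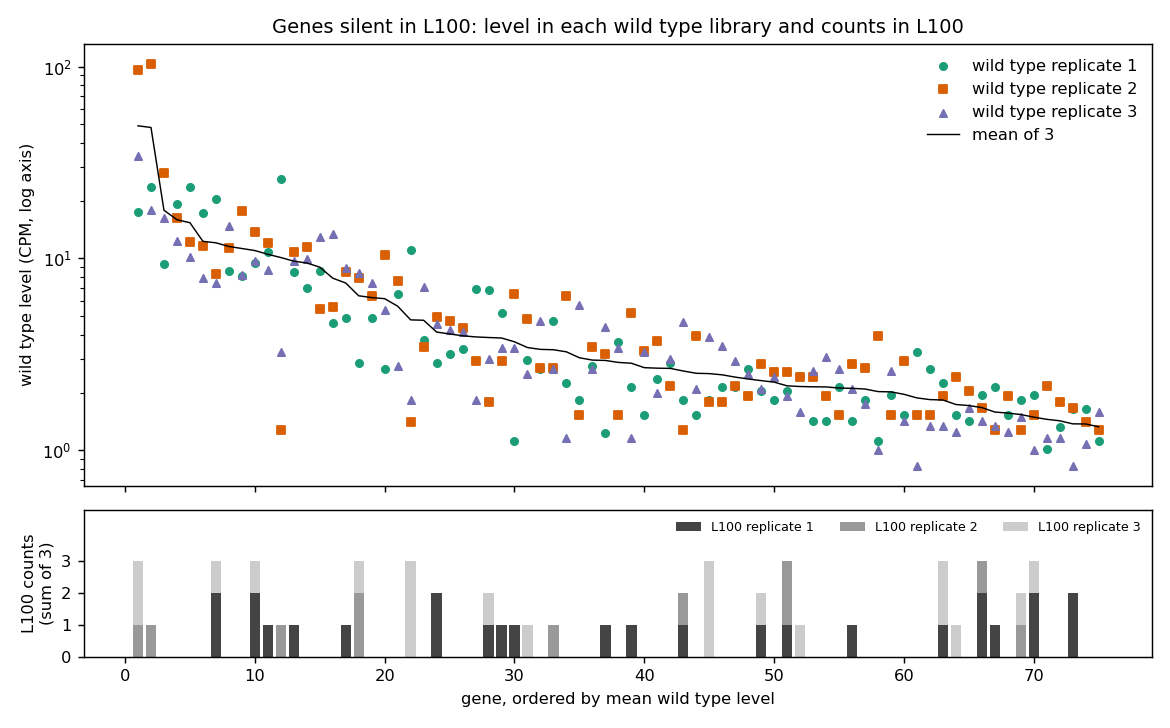
Upper panel: level in CPM (log axis) of the 75 genes in each wild type library, ordered by their mean (line); lower panel: counts of the same genes in the 3 L100 libraries, stacked. Mean levels run from 49.1 down to 1.33 CPM and single libraries from 103 down to 0.832 CPM. The 2 highest genes stand well above the rest in wild type replicate 2, and no gene exceeds 3 counts in L100.

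The 2 highest genes shared a pattern over the wild type libraries. GRMZM2G107076, which RefSeq lists as protein-coding with only a locus number as symbol, had 172, 751 and 410 counts in wild type replicates 1 to 3. It had 0, 1 and 2 counts in L100. Its level was 17.5, 95.7 and 34.1 CPM in wild type, with a mean of 49.1 ± 41.2 (SD, n = 3). GRMZM2G322892, also protein-coding in RefSeq with only a locus number, had 231, 809 and 214 counts in wild type and 0, 1 and 0 in L100. It reached 23.6, 103 and 17.8 CPM in wild type, with a mean of 48.1 ± 47.6 CPM (SD, n = 3). Both genes were highest in wild type replicate 2, and even their lowest wild type library lay far above L100. The ratio of wild type to L100 was 293 for GRMZM2G107076, with a 95% exact counting interval of 100.1 to 1424, and 828 for GRMZM2G322892, with an interval of 148 to 32715. These intervals cover counting error only. Here and below they are computed on the counts that the rule used, so they describe the genes and test nothing.

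The next genes had no count in L100, so their folds are lower bounds, taken as if the L100 libraries together had held 3 counts, the floor that a count of 0 allows. GRMZM5G878615 had 92, 219 and 195 counts in wild type, a mean of 17.8 ± 9.36 CPM (SD, n = 3), and was at least 111-fold higher in wild type. It has no RefSeq record. At 555 bases it is short, and per kilobase its level of 32.1 ± 16.9 CPM came close to that of the 2 highest genes (45.2 ± 37.9 and 38.2 ± 37.8, SD, n = 3). In the deposited FPKM, the authors' own level per length, it lay well below them, at 8.58 against 34.4 and 32.6. GRMZM2G053882 gave 188, 127 and 149 counts in wild type, a mean of 15.9 ± 3.40 CPM, and was at least 102-fold higher. Its wild type libraries lay within 1.55-fold of each other.

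GRMZM2G074496 gave 232, 96 and 122 wild type counts (15.3 ± 7.28 CPM, at least 99.0-fold higher), and GRMZM2G400092 gave 170, 91 and 95 (12.3 ± 4.76 CPM, at least 78.3-fold). Both were highest in wild type replicate 1. GRMZM2G019971, a protein-coding gene in RefSeq, had 84, 89 and 177 counts, with a mean of 11.5 ± 3.09 CPM, and was at least 77.0-fold higher in wild type. GRMZM2G017847 had 79, 138 and 98 counts (11.3 ± 5.47 CPM, at least 69.3-fold). The other 2 of the 10 highest genes each had 2, 0 and 1 counts in L100. They were GRMZM2G125432, with 201, 65 and 89 counts in wild type, and GRMZM2G090872, with 93, 108 and 117. Of the 10 highest genes, 6 had no L100 count and 3 had a RefSeq record.

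Over all 44 genes without an L100 count, the lower bound of the fold ran from 8.80 to 111, with a median of 17.7. For the 31 genes with 1 to 3 counts the ratio ran from 9.46 to 828 with a median of 40.9, and the lowest bound of any 95% counting interval was 3.03. The genes without a count were not the higher or longer ones. Their median level was 2.69 CPM and their median length 937.5 bases, against 3.34 CPM and 1260 bases for the 31 others. The rule itself keeps these folds and bounds high, and membership in either group was set by the L100 counts. These values are a description.

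The spread of the silent genes over the wild type libraries was close to that of other genes. The median coefficient of variation over the 3 libraries was 0.349, against 0.305 for all genes read in wild type. The highest and lowest wild type library differed by less than 2-fold in 43 of the 75 genes (57.3%, against 58.1% of all genes read in wild type) and by at least 5-fold in 6 (8%, against 7.28%). Wild type replicate 2 was the highest library for 34 genes (45.3%, against 34.9% of all genes read in wild type). Replicate 1 was the highest for 21 (28%, against 29.9%) and replicate 3 for 20 (26.7%, against 35.2%). At a median of 27 counts per gene and library, counting error is part of this spread.

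The widest spread was that of GRMZM2G157760, protein-coding in RefSeq with only a locus number, with 253, 10 and 39 counts in wild type. Its level was 25.8, 1.27 and 3.25 CPM, a 20.3-fold range, so its mean of 10.1 ± 13.6 CPM (SD, n = 3) rests on replicate 1. GRMZM2G075978 was also carried by replicate 1, with 109, 11 and 22 counts (11.1, 1.40 and 1.83 CPM). All 3 of its L100 counts were in L100 replicate 3. At the other end, GRMZM2G366638 had 83, 85 and 117 counts in wild type and 1 in L100, with a mean of 9.68 ± 1.18 CPM and a coefficient of variation of 0.122. GRMZM2G054678 had 33, 34 and 50 counts (3.95 ± 0.515 CPM), and GRMZM2G134749 had 27, 27 and 32 (2.95 ± 0.424 CPM), both without a count in L100. In these 3 genes the highest wild type library was at most 1.29-fold above the lowest.

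Wild type replicate 3, the library that stood apart, was at least 2-fold above both other wild type libraries in 4 of the 75 genes (5.33%, against 5.004% of all genes read in wild type) and at least 2-fold below both in 1 gene (1.33%, against 7.32%). Replicates 1 and 2 each stood at least 2-fold above both others in 6 genes (8%, against 3.44% and 4.49% of all genes read in wild type). The rule asks for 10 counts in wild type replicate 3, and all genes read in wild type meet the same requirement. The silent genes lay closer to it, with a median of 27 counts per gene and library against 139. It can therefore remove more of the silent genes that were low there, and the 2 shares are not on equal terms. The smaller share of silent genes that were low in this library was not tested. Applied without wild type replicate 3, the looser rule that remains was met by 94 genes, with a median of 2.70 CPM over wild type replicates 1 and 2. Without wild type replicate 2 it was met by 122.

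The rule did not use gene length. Of all gene models, 88.7% have a length in the files that is a multiple of 3, as a coding length would be. The longest silent gene, at 4807 bases, does not, so not every length can be taken as a coding length. The lengths had a median of 1062 bases (quartiles 652.5 and 1632) against 1236 bases (792 and 1776) over all genes read in wild type. Models under 300 bases were 8 of the 75 (10.7%) against 2.62% of all genes read in wild type, and models over 3000 bases 3 of 75 (4%) against 5.28%. Length and level go together across genes: in the lowest quartile of wild type level the median was 978 bases for the 57 silent genes and 1053 bases for all. In the second quartile it was 1716 bases for the 13 silent genes and 1173 bases for all.

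**Figure D3:**
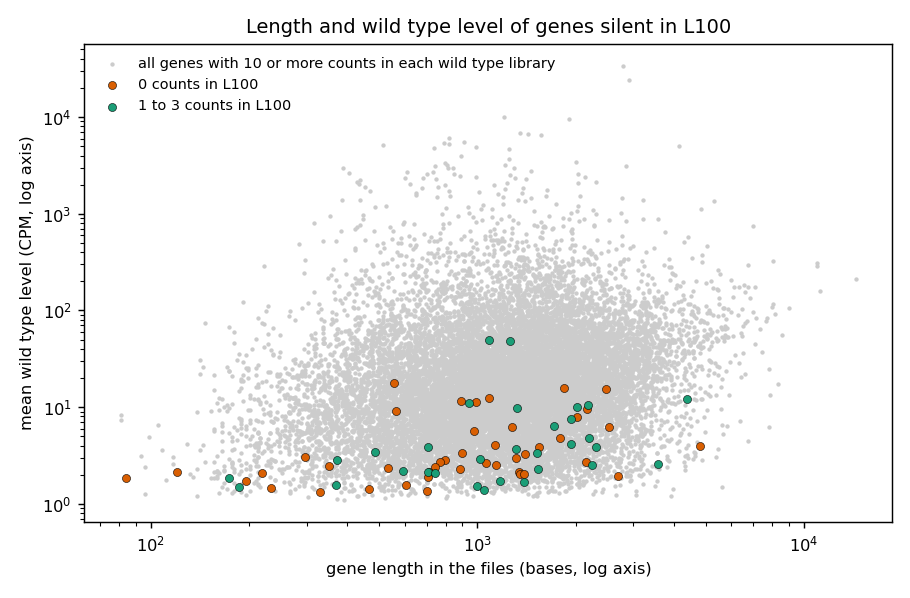
Length in bases against mean wild type level in CPM (both log axes) for all 17087 genes read in wild type (grey), the 44 genes with no count in L100 (orange) and the 31 with 1 to 3 counts (green). The silent genes lie mostly in the lower part of the cloud, spread over lengths of 84 to 4807 bases.

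The shortest members were GRMZM2G079321 with 84 bases, GRMZM2G529658 with 120 and GRMZM2G301961 with 174. GRMZM2G079321 had 26, 12 and 16 counts in wild type, which is 1.84 ± 0.713 CPM but 21.9 ± 8.48 CPM per kilobase (SD, n = 3). GRMZM2G529658 had 21, 12 and 32 counts, or 17.6 ± 4.73 CPM per kilobase. In CPM per kilobase both ranked among the 5 highest of the set, after the 3 genes with the highest means. That rank did not hold in the deposited FPKM, where they had 1.40 and 5.38 and the median of the set was 2.56. GRMZM2G301961 had 22, 15 and 16 counts in wild type and 1, 0 and 2 in L100, a ratio of 11.7 (95% exact counting interval 3.78 to 58.3). The longest members were GRMZM2G054678 with 4807 bases, GRMZM2G125432 with 4386 and GRMZM2G431573 with 3587. These 3 lay low in CPM per kilobase, at 0.822 ± 0.107, 2.75 ± 1.67 and 0.722 ± 0.506. In the deposited FPKM the first lay above the median of the set, at 5.33, and the other 2 below it, at 2.22 and 0.852. The deposited FPKM thus did not follow the lengths in the files for all genes.

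No function could be assigned to any of the 75 from the gene records used. Of the 75 gene IDs, 26 (34.7%) matched a RefSeq gene record (assembly Zm-B73-REFERENCE-NAM-5.0), against 72.7% of all genes read in wild type and 47.4% of all gene models. None of the matched records carries a symbol beyond a locus number. Within the lowest quartile of level the share was 20 of 57 (35.1%) against 62.6%, and within the second 4 of 13 (30.8%) against 72.0%, so the share was also lower among genes of like level. In the mirrored set, genes silent in wild type and read in L100, 10 of 51 (19.6%) had a record, against 73.3% of all genes read in L100. Silent genes with and without a record had median wild type levels of 2.95 and 2.70 CPM. A missing match says only that the older ID is not listed with a RefSeq gene.

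**Figure D4:**
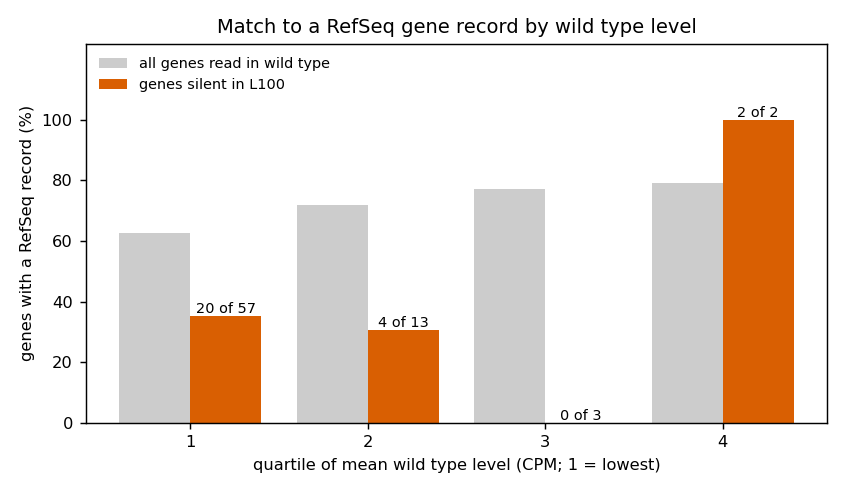
Share of genes with a RefSeq record (vertical axis, %) by quartile of mean wild type level, for all genes read in wild type (grey) and for the genes silent in L100 (orange, with the number matched of the number in the quartile). In the 2 lowest quartiles, which hold 70 of the 75 genes, the orange bars stand at 35.1% and 30.8% and the grey bars at 62.6% and 72.0%; the upper quartiles hold 3 and 2 silent genes.

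Of the 24 genes with exactly 1 record, 22 are listed as protein-coding. The genes named in the rest of this account were picked after their values were seen, other than those already named and the neighbours GRMZM2G304372 and GRMZM2G145583. GRMZM2G703354, listed as a pseudogene, had 84, 43 and 156 counts in wild type and none in L100, a mean of 9.01 ± 3.77 CPM (SD, n = 3). GRMZM2G427805, listed as a long non-coding RNA, had 29, 38 and 30 counts in wild type and 0, 0 and 1 in L100. GRMZM2G397785 matched 2 records, both transcribed pseudogenes, and had 48, 50 and 90 counts in wild type and none in L100. Pseudogenes resemble the genes they derive from, so their counts may include reads of a close copy.

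The order of genes in that assembly, used only to see which genes lie next to each other, placed 24 of the 75 among 17697 loci. Only loci matched by a gene ID with exactly 1 record were counted, so other genes may lie between those called neighbours here. Consecutive members on a chromosome were a median of 208 loci apart, and 2 members were direct neighbours in this order. These were GRMZM2G304372, with 18, 12 and 69 counts in wild type, and GRMZM2G145583, with 13, 14 and 14, both without a count in L100. The first was highest in wild type replicate 3 and the second was even. On one side of this pair lies GRMZM2G128485, which had 18.3, 18.0 and 17.8 CPM in the wild type libraries, overlapping its 18.8, 19.0 and 14.6 CPM in those of L100. On the other side lies GRMZM2G146140, with 1 count over all 6 libraries.

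A second close pair, GRMZM2G157683 and GRMZM2G157760, lies 4 loci apart. GRMZM2G157683 had 15 counts in each wild type library and none in L100. Of the 3 placed genes between them, GRMZM2G157729 had 190, 137 and 244 counts in wild type and 144, 113 and 119 in L100. GRMZM2G157716 had 147, 55 and 190 against 104, 37 and 82. Both were read at like levels in the 2 lines, with log2 fold changes (L100 against wild type) of 0.0040 and -0.17. The third, GRMZM2G157749, was low apart from wild type replicate 3, with 6, 8 and 139 counts in wild type and 5, 0 and 4 in L100. The silence of this pair thus did not extend over all the genes between its members.

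The neighbours of all 24 placed genes were examined in the same way. Among 40 tested genes directly beside a silent gene, 20 had a positive and 20 a negative log2 fold change (L100 against wild type). Their median was -0.02, and edgeR called none in either direction. Over all placed genes tested, the silent genes left out, edgeR called 0.132% lower and 0.194% higher, so almost no call would fall among so few genes at that rate. Within 5 loci on either side, 102 of 180 tested neighbours were lower (56.7%, against 50.7% of all placed genes tested, the silent genes left out), with a median of -0.09 and again no call. No placed member lay within 5 loci of a placed gene of the mirrored set, but only 10 of its 51 genes were placed.

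The densest stretch of the gene order was looked for, as the shortest that held 7 members. A densest stretch exists for any placement of members. Of the 24 placed genes, 7 (29.2%) lay in a stretch of 545 loci (3.08% of all placed loci), an extent that was chosen after the order was seen and is not tested. They run from GRMZM2G134749 over GRMZM2G004278, GRMZM2G304372, GRMZM2G145583, GRMZM2G322892 and GRMZM2G427805 to GRMZM5G842484. GRMZM2G004278 had 11, 31 and 12 counts in wild type and none in L100, and GRMZM5G842484 had 28, 39 and 55 in wild type and 2, 0 and 0 in L100. Of the other genes of the stretch, 390 were tested. The log2 fold change was negative in 204 and positive in 186, with a median log2 fold change of -0.02 against -0.01 over all placed genes tested, and edgeR called 2 lower (0.513%, against the 0.132% given above) and 2 higher. Of the 10 placed genes of the mirrored set, 1 lay in the stretch.

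Gene models named after a sequenced clone gave 4 of the 75. AC199571.3_FG003 and AC199571.3_FG004 carry the name of the same clone. They had 15, 31 and 25 counts and 15, 26 and 39 counts in wild type, with none in L100. The third model of that clone in the files, AC199571.3_FG001, had 3, 4 and 4 counts in wild type and 0 in each L100 library, too few to meet the rule. AC184831.3_FG003 had 18, 20 and 29 counts in wild type and none in L100, while the 2 other models of its clone had no count in any library. AC205853.3_FG014, the only model of its clone in the files, had 15, 23 and 17 counts in wild type and none in L100.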

How the data were processed

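RNA from leaves of 3 wild type and 3 L100 samples was sequenced. The submitters' processing notes name Bowtie 0.12.2 as a tool and B73 RefGen_v3 as the genome build. The counting tool was not given in the sources used here. Per the file headers, the authors' tables hold estimated counts, FPKM, scaled signal and a length for 39628 gene models. All but 0.300% of the deposited estimated counts were whole within 0.001, and all were rounded. The deposited FPKM served only as an alternative level, and the authors' scaled signal was not used.

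L100 was set against wild type in edgeR 4.0.16 in R 4.3.3 (quasi-likelihood test, TMM, filterByExpr, no block, Benjamini-Hochberg over all tested genes, threshold 0.05), with DESeq2 1.42.0 and limma 3.58.1 as alternatives; edgeR was tested on simulated data. Nothing says that replicates were separate plants, so p-values reflect the spread among these libraries, which may be technical. CPM are on TMM-scaled library totals. A floor of 3 counts is 0.302 to 0.465 CPM in a library. Replicate numbers did not count as pairs. Names and order came from RefSeq records of a later build, matched by 18774 IDs; no coordinates were taken from it. The searches for close protein copies and protein motifs that had been planned were not run. Named genes followed a rule: the 10 highest in wild type, the 5 highest per kilobase, the 5 highest without an L100 count, the 3 longest, shortest, most and least variable, and direct neighbours. The members, limits and lists were chosen with earlier results of these data known.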

Additional observations from a re-analysis of the deposited data

How the results depend on the processing

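The number of silent genes, 75, followed the limits of the rule. It was 44 with no L100 count allowed, 137 with at least 5 counts in each wild type library and 33 with at least 20, and it ranged from 89 to 122 with 1 library left out. Leaving out a library loosens the rule, so all 75 are among the genes found then. Their median wild type level of 2.87 CPM became 2.69 with no L100 count allowed, 1.99 and 6.39 with at least 5 and at least 20 wild type counts, 3.87 with counts scaled to the smallest library and 3.17 without a scaling factor, and ranged from 2.31 to 2.91 with 1 library left out. On the deposited scale the median was 2.56 FPKM. The median length of 1062 bases became 1326 with at least 20 wild type counts and ranged from 1018.5 to 1091 with 1 library left out. The share with a RefSeq record stayed between 27.3% and 38.5% under all these settings, a comparison added after the data were seen. Members with another member next to them numbered 2, and 4 within 5 loci.

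Calls of the test depended more on the setting. Over all genes edgeR called 59 lower in L100, against 291 with DESeq2 and 107 with the stricter filter; with 1 library left out the number ranged from 0 to 81. Of the silent genes 34 were called, against 63 with DESeq2, 58 with the stricter filter and 0 to 26 with 1 library left out. Without L100 replicate 2 or 3, where no gene was called, 651 and 726 genes were lower at an unadjusted p under 0.05. The replicate block left 3 genes lower over all, 2 of them silent genes. Same-numbered libraries shared deviations for numbers 1 and 2 (correlation across genes 0.384 and 0.348) but not for number 3 (0.0146), so the numbers were not taken as pairs. Of the 21 genes chosen by the naming rule, 7 had wild type means that moved by over 1.5 times with 1 wild type library left out. Without replicate 1 the mean of GRMZM2G157760 was 2.26 CPM in place of 10.1, that of GRMZM2G075978 1.62 in place of 4.78 and that of GRMZM2G125432 7.84 in place of 12.1. Without replicate 2, GRMZM2G107076 had 25.8 CPM in place of 49.1 and GRMZM2G322892 20.7 in place of 48.1. Without replicate 3, GRMZM2G304372 had 1.68 CPM in place of 3.04 and GRMZM2G431573 1.56 in place of 2.59. Depth limits the set to genes above about 1 CPM in wild type. Other identity limits for close protein copies were not run.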
